A study of Mus musculus with 64 samples.

Results

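The hippocampus of Cyfip2 knock-in mice was compared with that of wild-type (WT) littermates at postnatal week 28, with 8 of the 64 libraries of the series. The knock-in (KI) group held 4 libraries from heterozygous Cyfip2+/R87C mice, which carry 1 allele coding for cysteine in place of arginine at residue 87 of CYFIP2, and the WT group held 4 libraries from littermates without that allele. Both groups shared the C57BL/6N background, were untreated, and had the hippocampi of both hemispheres dissected. The allele is present in every cell from conception, so the design does not separate cell types or a developmental from an adult effect. Each library came from a separate mouse. Members were chosen by column label alone, and all genes of the table entered. RNA was sequenced in bulk, so for every gene below fewer cells of a type and less RNA per cell cannot be told apart.

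CYFIP2 is a subunit of the WAVE regulatory complex, which holds the WAVE proteins inactive until Rac1 binds and then lets them drive branching of actin through the Arp2/3 complex. Substitutions at arginine 87 of CYFIP2 are known from infants with epileptic encephalopathy, and spontaneous seizures were studied in these mice. The hippocampus passes signals from dentate granule cells through CA3 to CA1 pyramidal cells under the control of GABAergic interneurons. Genes for secreted peptides, astrocytic filaments and growth factors are known to respond there to seizure activity.

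The values are gene counts estimated from the reads and scaled between libraries by the authors, called normalized counts here. Totals were 30702063 to 31498906 in KI and 29865459 to 30484721 in WT, and 82 to 123 genes per library stood at 0. Correlations of log2 values were 0.983 to 0.988 within a genotype and 0.975 to 0.982 between genotypes. The first principal component held 38.6% of the variance and put the 4 KI libraries on one side and the 4 WT libraries on the other. On the second, with 14.0%, KI replicates 1 and 3 lay apart from KI replicates 2 and 4. All 7 markers used to check the tissue (among them Prox1 of dentate granule cells, Zbtb20 and the CA1 genes Wfs1 and Fibcd1) stood above their WT frontal cortex means in WT hippocampus, Spink8 at a mean of 529 ± 84.4 (SD, n = 4) and C1ql2 at 1295 ± 49.8. The choroid plexus transcript Ttr varied from 33029.9 to 114193 in WT and from 55369 to 94789 in KI, and none of the 14 choroid plexus genes or 20 ependymal and cilium genes passed the test. Y-linked Ddx3y stood at 1232 or more in all 8 libraries.

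Of 18389 genes tested, 2911 passed an adjusted p of 0.05 (15.8%), of which 1640 were higher in KI (8.92% of the genes tested) and 1271 lower (6.91%). The test was limma's moderated test on log2(normalized count + 1), adjusted over all genes by the Benjamini-Hochberg method, and every difference below is KI minus WT on that log2 scale, with its standard error (SE) where given. This scale understates the change of genes near 0. A difference of at least 1, a doubling or halving, was reached by 324 of the genes that were higher and by 93 of those that were lower, and the median over all tested genes was 0.0037. The groups did not overlap for 3962 genes (21.5%). Leaving out WT replicate 1 left 1881 calls, 1114 higher and 767 lower, and the lower calls were also fewer without WT replicate 2 (833) or WT replicate 4 (824). Among the called genes 56.3% were higher, and 40.6% were when the libraries were instead scaled to equal totals, which moves the median over all tested genes to -0.038.

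Cyfip2 itself did not differ detectably. Its values were 24732, 26689.9, 29612 and 26419.5 in KI replicates 1 to 4 and 26732, 29266, 26842 and 27601 in WT replicates 1 to 4, and the groups overlapped (-0.042 ± 0.056 SE, adjusted p = 0.67). In frontal cortex of the same age the difference was -0.44, and the effects of the 2 regions differed (0.40 ± 0.11 SE, adjusted p = 0.044). A gene count does not separate the mutant from the normal allele. Of the 12 genes for the WAVE complex and Rac GTPases, 1 passed the test: Nckap1l, the form of the Nck-associated subunit used by blood cells and microglia (0.29, adjusted p = 0.029). The neuronal partners Cyfip1 (-0.084), Nckap1 (-0.027) and Wasf1 (-0.037) did not pass, each within 0.1 of 0. Further down the pathway, 6 of 22 genes for the Arp2/3 complex and actin turnover were higher and 2 lower. Arpc1b, an Arp2/3 subunit of immune and glial cells, was at 689.97, 521, 582 and 564 in KI and 306, 367, 389 and 412 in WT (0.68 ± 0.11 SE, adjusted p = 0.0024). Tmsb10 (0.55), Dstn (0.47) and Gsn (0.39), which bind or cut actin, rose with it, and Limk2 (-0.24) and Cttn (-0.20) fell. Of 15 genes for translation partners of CYFIP proteins 1 rose and 1 fell, Eif4ebp2 by 0.35 (13.3% called, against 15.8% of all genes). Fmr1 (-0.012) and Eif4e (-0.17) were among those that did not pass.

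The largest differences belonged to genes nearly silent in the WT hippocampus. Slc6a5, the neuronal glycine transporter GlyT2, was at 1256, 1201, 744 and 906 in KI and 4.22, 5.38, 2.14 and 5.08 in WT (7.64 ± 0.25 SE, adjusted p = 4.1e-08). Glra1, the adult alpha subunit of the glycine receptor, was at 116, 87.8, 67 and 88.6 in KI and 0, 2.88, 2.1 and 2.31 in WT (5.15 ± 0.42 SE, adjusted p = 3.7e-05). Both genes are textbook markers of glycinergic transmission in the brain stem and spinal cord, and the lowest KI library was 138 times the highest WT library for Slc6a5 and 23.3 times for Glra1. The vesicular transporter Slc32a1, shared by GABA and glycine, also rose, with 1771 to 2058 in KI and 1102 to 1257 in WT (0.72, adjusted p = 6.7e-05). Of 19 genes of glycine handling 4 rose and 1 fell, the other riser being Psat1, an enzyme of serine synthesis (0.19, adjusted p = 0.021), and the one that fell Slc38a1, a neutral amino acid transporter (-0.15, adjusted p = 0.021). The glial transporter Slc6a9 (0.23), Glrb (0.10), Glra2 (-0.18) and Gphn (0.016) did not pass the test. Of the 8 markers written for brain stem and spinal glycinergic neurons Slc6a5, Glra1 and Slc32a1 were measured, and the others were not analysed here.

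Several other genes went from a few normalized counts to far higher values. Atp2a1, the calcium pump of fast skeletal muscle, was at 213, 93.1, 79.9 and 122 in KI and 3.71, 2.91, 6.99 and 4.64 in WT (4.47 ± 0.34 SE, adjusted p = 2.3e-05). The proton channel gene Otop1 was at 87.9, 73.5, 65.6 and 42.4 against 0, 3.56, 0 and 1.27 (5.21, adjusted p = 9.9e-05), and the hydrogen peroxide-generating oxidase Duox2 at 149.9, 90.4, 89.9 and 111 against 8.18, 2.47, 0.914 and 9.96 (4.42, adjusted p = 0.00027). None of these 3 overlapped between genotypes. The homeobox genes Nkx1-2 (4.49) and Msx3 (4.42) and Agmat (4.31), named for an agmatine-cleaving enzyme, rose by more than 4 on the log2 scale from WT values of at most 3.09, the highest being that of Agmat. Msx3 varied most among the KI libraries, from 9.84 to 54.4. The gene with identifier ENSMUSG00000118505, with no symbol in the annotation used, was at 211, 132, 222 and 37.3 in KI against 3.39, 0.96, 3.19 and 2.04 in WT (5.27, adjusted p = 0.00012). The processed pseudogene Eif4a-ps4 stood at 285, 269, 324 and 523 in KI and was listed at 0 in all 4 WT libraries, for which no fold is given. A processed pseudogene shares sequence with its parent gene, so reads could be split between copies, and the same holds for Pdcd5-ps (4.57), which was listed at 0 in 3 WT libraries.

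**Figure D1:**
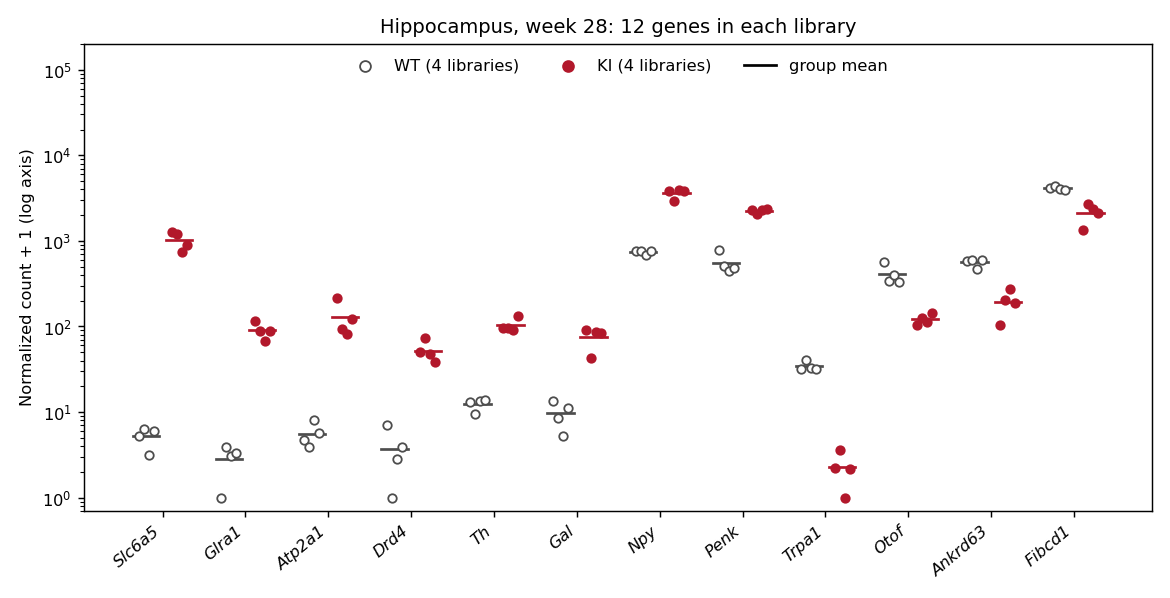
Normalized counts plus 1 (log axis) of 12 genes in the 4 KI and 4 WT hippocampal libraries of week 28, with each point a library and each bar the group mean. For Slc6a5, Glra1, Atp2a1 and Drd4 all KI points stand far above all WT points, and for Trpa1, Otof, Ankrd63 and Fibcd1 all KI points stand below.

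Most of the genes that fell most were lowly expressed. Trpa1, an irritant-gated cation channel, was at 1.22, 2.63, 0 and 1.18 in KI and 30.6, 39.7, 31.6 and 30.9 in WT (-4.05 ± 0.41 SE, adjusted p = 0.00014). Otof, the calcium sensor otoferlin, was at 103, 126, 111 and 142 in KI and 567, 335, 399 and 329.5 in WT (-1.72, adjusted p = 0.00014), and Ankrd63 at 102, 203, 271 and 189 and 576, 601, 468 and 589.95 (-1.62, adjusted p = 0.0012). The MUNC13-related release factor Baiap3 was at 57.3, 96.7, 79.6 and 103 and 379, 194, 254 and 219.7 (-1.61, adjusted p = 0.0011). These 4 genes did not overlap between genotypes. Onecut1, a transcription factor gene (-1.93), Scin, an actin-severing protein (-1.65), Khdc3 (-1.89), the tight junction gene Cldn22 (-2.18) and 3 noncoding genes, 6330420H09Rik (-2.17), 4933427I22Rik (-2.10) and the antisense gene Gm9947 (-2.22), fell from WT means of 21.3 (4933427I22Rik) to 84.8 (6330420H09Rik). How the authors' quantification used strand is not given in the sources used here, so whether reads of Gm9947 and of the gene it overlaps were told apart is not known.

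Neuropeptides, granins and the enzymes that process them formed the neuronal group with the highest share of called genes. Of 31 genes, 14 were higher and 5 lower (61.3% called, against 15.8% of all genes), with a median difference of 0.35. Npy, the inhibitory peptide neuropeptide Y, was at 3823, 2922, 3889 and 3879 in KI and 765, 769, 683 and 755 in WT (2.28 ± 0.09 SE, adjusted p = 2e-07). Gal, the precursor of galanin, was at 90.5, 41.6, 85.3 and 82.7 and 12.5, 7.58, 4.3 and 10.2 (3.00, adjusted p = 0.00031), and Penk, the precursor of enkephalins, at 2312, 2039.9, 2291 and 2362 and 774, 514, 440.3 and 486 (2.05, adjusted p = 1.3e-05). All 3 were separated between genotypes, the lowest KI value lying 3.8 times above the highest WT value for Npy, 3.33 times for Gal and 2.63 times for Penk. Bdnf, the neurotrophin, was at 3751, 2293, 3110.3 and 1971 in KI and 1316, 1341, 1074 and 1336 in WT (1.09, adjusted p = 0.0017), and the neurexophilin gene Nxph4 at 133, 114, 109.6 and 124 and 33, 21.1, 17.3 and 26.7 (2.28, adjusted p = 7.9e-05). Trh, the precursor of thyrotropin-releasing hormone, was called (2.57, adjusted p = 0.010) although its groups overlapped, since KI replicate 2 was at 23.7.

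Several secretory granule genes rose by less. Chga (0.77), Vgf (0.69), Scg3 (0.55) and Scg2 (0.52) had KI values above all WT values, and so did the processing enzyme genes Cpe (0.28) and Pcsk2 (0.22). The granule chaperone gene Scg5 fell (-0.16, adjusted p = 0.042). The convertase Pcsk1 fell, with 626 to 1175 in KI and 1337 to 1623 in WT (-0.73, adjusted p = 0.019), as did Cort (-0.94) and Cartpt (-1.64), the precursors of cortistatin and of CART peptide. The interneuron peptides Sst (0.13) and Vip (-0.05) and the granule cell opioid Pdyn (0.06) did not pass the test. Of 28 neuropeptide receptor genes 2 rose and 2 fell, 14.3% called against 15.8% of all genes, so their share was not raised. Rxfp3 (0.89) and the delta opioid receptor Oprd1 (0.82) rose. The corticotropin-releasing hormone receptor Crhr1 (-0.57) and Npy2r (-0.63), the presynaptic receptor for neuropeptide Y, fell. The receptors Npy1r (0.14) and Npy5r (0.051) did not pass.

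The fast immediate early genes Fos (-0.47, adjusted p = 0.74), Fosb (0.048, adjusted p = 0.97), Egr1 (-0.49, adjusted p = 0.66) and Npas4 (0.0015, adjusted p = 0.999) did not pass the test, and they varied widely among libraries, Fos from 121 to 2712 in KI and 558 to 732 in WT. Of 28 genes for such transcription factors 5 rose and 2 fell, with Maff (1.38) and Jun (0.46) among the former and Nr4a2 (-0.97) and Crem (-0.33) the latter. Of 34 activity-induced effector genes 11 rose and 1 fell. Nptx2, a secreted pentraxin that clusters AMPA receptors, was at 3119, 2309, 4077 and 1103 in KI and 673, 679.9, 641 and 777 in WT (1.79 ± 0.30 SE, adjusted p = 0.0029). Blnk, an adaptor best known from B cells, was at 556, 624, 507 and 398 and 109.5, 135, 107 and 111 (2.15, adjusted p = 8.6e-06). Ptgs2 (cyclooxygenase 2, 1.32) and Rgs2, a regulator of G-protein signalling (1.28), followed, and Sik1, a salt-inducible kinase, fell (-0.80). The mean level of the whole list over its WT mean was 0.66, 0.11, 0.46 and -0.17 in KI replicates 1 to 4, so that replicate 4 lay below the WT mean. Arc (-0.91, adjusted p = 0.26) and Homer1 (-0.11, adjusted p = 0.63) were not called.

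Promoter sequence was examined for the cAMP response element, the site of the activity-regulated factor CREB, in the 250 bases before the annotated starts (RefSeq, GRCm38.p6, 12927 of the tested genes matched). The letters TGACGTCA, which read the same on both strands, occurred in 2.8% of all these genes and in 5 of the 24 neuropeptide and granin genes with a sequence, of which 2 were called higher, 2 lower and 1 not. Promoters holding it thus belonged to genes moving in both directions. It occurred in 2 of 26 activity effector genes and in 1 of 23 immediate early genes. Stretches of Maff and Plk2, which rose, and of Pcsk1, which fell, are shown to compare their surroundings, 5′ to 3′ on the strand of the gene with the element in capitals.
Maff (chr15:79347479-79347510, plus strand): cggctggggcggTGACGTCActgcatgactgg
Plk2 (chr13:110394970-110395001, plus strand): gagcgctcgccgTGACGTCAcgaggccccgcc
Pcsk1 (chr13:75089767-75089798, plus strand): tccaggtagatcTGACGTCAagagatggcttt

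GABAergic genes rose at the level of synthesis and vesicle loading. The transmitter-making enzymes Gad1 (0.25, adjusted p = 0.019) and Gad2 (0.51, adjusted p = 0.00084) were both higher, Gad2 at 6721, 6211, 5477 and 6172 in KI and 4480.3, 4411, 3865 and 4515 in WT. Of 35 genes for GABA synthesis, transport and interneuron identity 10 rose and 3 fell, although the median over the list was -0.019. Crhbp, the binding protein of corticotropin-releasing hormone (1.18), and Reln, reelin (0.61), rose with them, and Lamp5, a marker of neurogliaform interneurons (-0.61), Kit (-0.26) and Cck (-0.25) fell. Pvalb (0.18), Sst and Vip, which mark the main interneuron classes, did not pass. Among 17 GABA-A receptor subunits, 2 rose, among them Gabra4 (0.30), and the extrasynaptic subunits Gabrd (-0.52, adjusted p = 0.0014) and Gabra5 (-0.31, adjusted p = 0.025) fell, the Gabra5 groups overlapping. Gabrd, which accompanies alpha4 in granule cells, was at 428, 379.97, 401 and 358 in KI and 535, 581, 545 and 579 in WT. Slc12a5, which codes for the chloride extruder KCC2, fell, with 9995 to 11897 in KI and 13131 to 13686 in WT (-0.28, adjusted p = 0.0040), and the chloride importer Slc12a2 did not pass (0.076). The carbonic anhydrase Car4 fell too (-0.60), within a list of 22 genes for chloride transport of which 2 rose and 3 fell.

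Of 11 AMPA and kainate subunits Gria2 (-0.23, adjusted p = 0.0090) and Grik3 (-0.45, adjusted p = 0.0023) fell and none rose. Under the correction for GC content and length Gria2 was not called (-0.093, adjusted p = 0.15), and 1 member rose and 1 fell. Of 8 NMDA receptor genes Grin2a fell (-0.31, adjusted p = 0.0081) and Grina, a gene named for its similarity to a receptor subunit, rose (0.19, adjusted p = 0.0085). Gria1 (-0.11), Gria3 (0.043), Grin1 (0.082) and Grin2b (-0.048) did not pass. Gria2 makes AMPA receptors impermeable to calcium, and its values were 24617, 26358, 27022 and 25416 in KI and 31463, 31936, 28192 and 30139 in WT. The AMPA receptor auxiliary genes went both ways, 4 of 23 up and 4 down. Olfm2 (0.93), Gsg1l (0.70) and the low-abundance Shisa8 (1.20) rose, and Prrt1 (-0.57), Shisa7 (-0.50) and Neto2 (-0.40) fell. Grm4 (0.38) rose and Homer2 (-0.44) fell among 10 metabotropic receptors and their scaffolds.

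Genes of sodium and potassium channels moved in both directions. Of 19 sodium channel genes 5 rose and 4 fell (47.4% called, against 15.8% of all genes), and with equal totals 3 rose and 4 fell. The auxiliary subunit Scn3b fell, with 4816 to 5746 in KI and 8189 to 9706 in WT (-0.83 ± 0.067 SE, adjusted p = 3.3e-05), and Scn7a rose (1.05), while the main brain pores Scn1a (-0.10), Scn2a (0.028) and Scn8a (-0.085) did not pass. Of 47 voltage-gated potassium channel genes 9 rose and 8 fell (36.2% called), and with equal totals 7 rose and 10 fell. The calcium-binding channel partners parted: Kcnip3 (also known as DREAM or calsenilin) rose, with 4541, 5037, 4551 and 3975 in KI and 2132, 2082, 2139 and 2279 in WT (1.06, adjusted p = 6.3e-06), and Kcnip2 fell, with 2439.7, 3362, 2915 and 2669.8 and 4615, 4992, 4623 and 4645 (-0.74, adjusted p = 0.00027). The silent subunits Kcng3 (-1.08) and Kcnf1 (-0.63) and Kcnh7 (-0.52) fell as well. Kcnj2, an inward rectifier, rose, with 576 to 1286 in KI and 289.7 to 356 in WT (1.18, adjusted p = 0.0039), and the leak channels Kcnk2 (-0.52) and Kcnk9 (-0.46) fell. Hcn4 rose (1.06), with Hcn2 (0.076) not called.

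Of 18 calcium channel genes 4 rose and 3 fell (38.9% called, against 15.8% of all genes), and with equal totals 4 rose and 6 fell. The alpha2delta subunits Cacna2d2 (1.02, adjusted p = 0.00027) and Cacna2d4 (1.51, adjusted p = 0.0083) and the T-type channel Cacna1g (0.61, adjusted p = 0.0071) rose, and the T-type channel Cacna1i (-0.59, adjusted p = 8.4e-05) and the L-type channel Cacna1c (-0.29, adjusted p = 0.028) fell. The release channels of internal stores Itpr1 and Ryr3 fell, Itpr1 at 9366, 10986, 11213 and 10199.6 in KI and 15385, 15744, 15342 and 16865 in WT (-0.60, adjusted p = 0.00012) and Ryr3 at 2569, 3334, 3631 and 2858 and 4682, 4735, 4059 and 4181 (-0.52, adjusted p = 0.0052). Both pairs of groups were apart. Of 32 genes for calcium pumps, exchangers, buffers and store channels 5 rose besides these (21.9% called in either direction). Among them were the pump genes Atp2a1 (4.47, adjusted p = 2.3e-05) and Atp2c2 (1.10, adjusted p = 0.0011) and the exchanger Slc8a1 (0.26, adjusted p = 0.023). With the replicate block 3 rose. The brain calcium pumps Atp2a2 (-0.052) and Atp2b2 (0.04) and the buffer Calb1 (-0.093) did not pass.

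**Figure D2:**
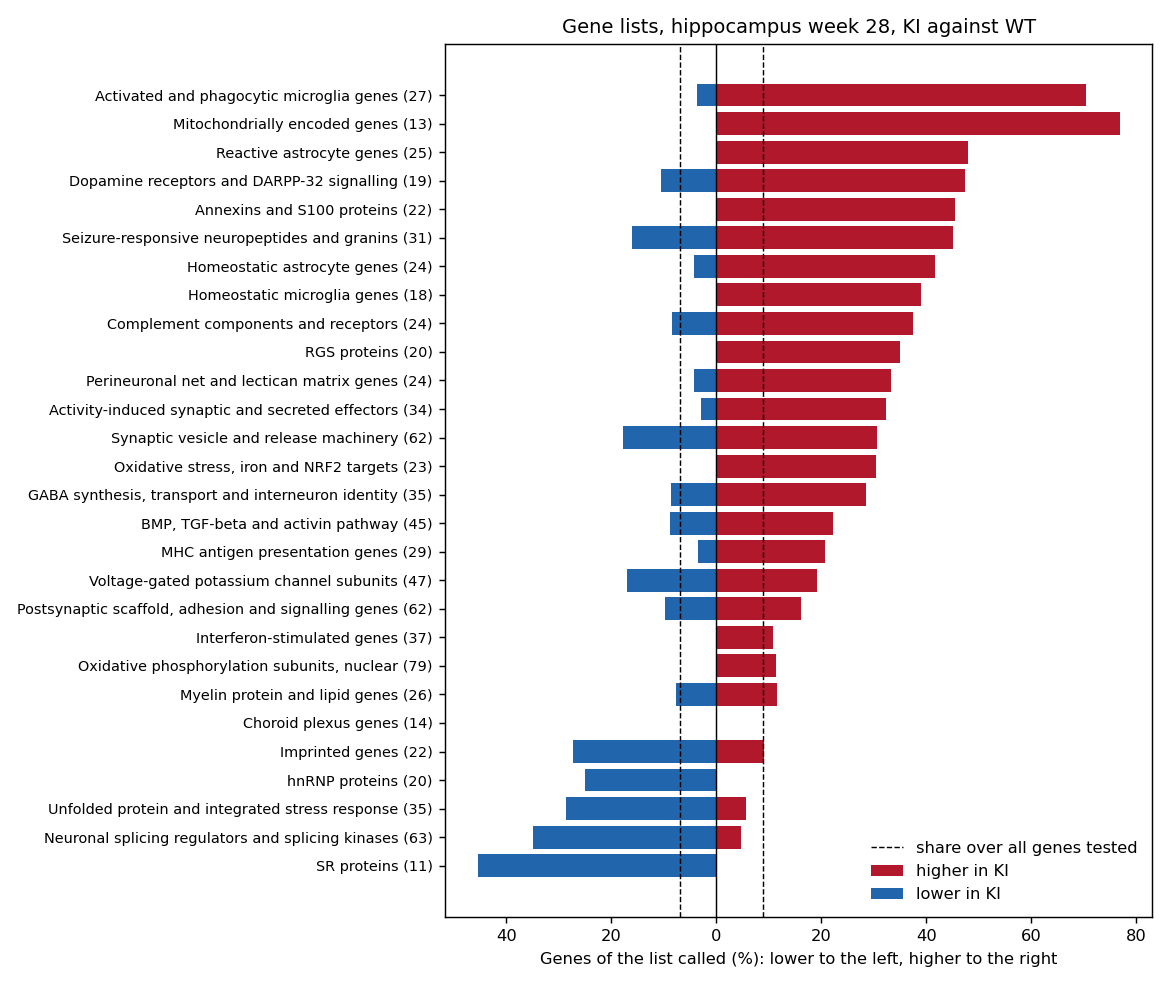
Percent of the tested genes of each of 28 gene lists called higher (right) or lower (left) in KI, with the number of genes beside each name. Dashed lines give 8.92% and 6.91%, the shares over all 18389 genes, and mitochondrially encoded and activated microglia genes reach furthest to the right (10 of 13 and 19 of 27 genes) while SR protein genes reach furthest to the left (5 of 11).

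Of 62 genes for synaptic vesicles and release 19 rose and 11 fell (48.4% called, median 0.077). Of 62 postsynaptic scaffold and adhesion genes 10 rose and 6 fell (25.8% called, median -0.0073), against 15.8% of all genes called. The difference between these shares was not tested. With equal totals 17 of the release genes rose and 11 fell, and 6 of the postsynaptic genes rose and 9 fell. The vesicle genes Syn3 (1.03, adjusted p = 0.00011) and Sv2c (0.84, adjusted p = 0.00086) and the calcium sensor Doc2a (0.67, adjusted p = 0.0040) rose most. The vesicular glutamate transporters parted, with Slc17a7 (VGLUT1) at 44659, 40878, 46234 and 42734 in KI and 32143, 35047, 32992 and 31693 in WT (0.40, adjusted p = 0.00047) and Slc17a6 (VGLUT2) at 500.3, 269, 495 and 515 and 612, 775, 589 and 739.8 (-0.65, adjusted p = 0.040). Slc17a6 was also on the list of thalamic markers, of which Prkcd fell as well (-0.86, adjusted p = 0.00012) and Calb2 rose, while Tcf7l2, Lef1 and Ntng1 did not pass. Without WT replicate 2 Slc17a6 was no longer called (adjusted p = 0.10), nor without any other single WT library. The part of tissue dissected with the hippocampus in these values was not tested. Unc13c (-0.48), Syt4 (-0.41) and Syt1 (-0.20) fell, and Snap25 did not pass (0.039). On the postsynaptic side, the phosphatase genes Ptprf (0.54) and Ptpn5 (0.53, STEP) rose, and Homer2, the dendritic gene Ddn (-0.42) and Prkca (-0.38) fell. Dlg4 (-0.031), Shank3 (-0.046) and Camk2a (-0.12) did not pass.

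Genes that mark the neurons of single hippocampal fields were called in both directions, and most of the CA1 genes lay below 0. Of the CA1 genes 18.8% were called, near the 15.8% of all genes. The shares were 33.3% for dentate granule cell genes and 23.8% for CA2 and CA3 genes. Fibcd1, a CA1 gene, was at 1336, 2674, 2341 and 2136 in KI and 4159, 4391, 4048 and 3913 in WT (-1.0 ± 0.17 SE, adjusted p = 0.0024), with replicate 1 lowest. Of the 16 CA1 genes it fell together with Kcnh7, and Wfs1 rose (0.38, adjusted p = 0.0015). The other 13, such as Mpped1 (-0.041), Man1a (-0.05) and Pou3f1 (-0.12), did not pass, and 2 of them lay above 0. The median over the 16 was -0.14. Their list level over WT was -0.38, -0.14, -0.039 and -0.14 in KI replicates 1 to 4. In WT it ran from -0.12 to 0.11, so the groups overlapped. The medians over the dentate granule cell genes and the CA2 and CA3 genes described next were -0.0585 and -0.12. Among 21 dentate granule cell genes the synaptic organizers C1ql2 (0.54, adjusted p = 0.0025) and C1ql3 (0.52, adjusted p = 0.00032) rose and Dsp, desmoplakin (-0.65, adjusted p = 0.014), and Il1r1 (-0.43, adjusted p = 0.028) fell, with Prox1 (-0.16) not called. Among 21 CA2 and CA3 genes Ccdc3 (1.13, adjusted p = 0.00014) rose and Cpne4 (-0.48, adjusted p = 0.0047) fell, and Rgs14 and Pcp4, markers of CA2, did not pass at 0.38 and 0.10. The pan-neuronal gene Rbfox3 did not pass (0.086). Of 21 genes for immature neurons 5 rose and 3 fell (38.1% called). Dcx (-0.041) and Sox11 (0.15) were not called, and Igfbpl1 (1.13), Nes (0.69) and the peptide gene Tac2 (1.33) rose. Of 29 replication and mitosis genes 2 were called (6.9%).

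Of 19 dopamine-related genes 9 rose and 2 fell (57.9% called, against 15.8% of all genes). Th, the rate-limiting enzyme of catecholamine synthesis, was at 94.8, 94.3, 90.3 and 130.03 in KI and 12.3, 8.4, 12.5 and 13 in WT (3.05 ± 0.22 SE, adjusted p = 1.5e-05). Drd4, the D4 receptor, was at 49, 72.2, 46.1 and 37.2 in KI and 6.07, 0, 1.8 and 2.89 in WT (4.10, adjusted p = 0.00056), and Drd1, the D1 receptor, at 378, 458, 349 and 431 and 156, 92.7, 99.2 and 128 (1.78, adjusted p = 8.4e-05). The 3 genes were separated between genotypes. Slc18a2, the vesicular monoamine transporter (1.57, adjusted p = 0.0013), and Ppp1r1b, which codes for DARPP-32 (0.79, adjusted p = 0.0021), rose as well. Drd1 and Ppp1r1b are among the 5 striatal markers, of which Drd2 (0.10), Adora2a (0.20) and Rgs9 (-0.076) did not pass. The D5 receptor Drd5 did not pass (-0.014). Of 12 serotonin receptors (33.3% called) Htr1a (-0.59, adjusted p = 0.037), Htr1b (-0.81, adjusted p = 0.013) and Htr5b (-1.15, adjusted p = 0.0017) were lower and Htr4 (0.37, adjusted p = 0.025) higher. The muscarinic receptors Chrm3 (-0.71) and Chrm4 (-0.64) fell, and the nicotinic Chrna2 (1.76) rose from a mean of 7.59 ± 3.17 to 26.9 ± 4.68. Of 20 RGS genes, whose proteins shorten G-protein signals, 7 rose and none fell (35% called), with Rgs13 (3.06), Rgs2, Rgs4 (0.95) and Rgs6 (0.61) the largest.

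Astrocyte genes rose with a marked reactive component. Gfap, the astrocytic intermediate filament, was at 44711, 32067, 35273 and 37928 in KI and 8803, 9349.5, 9894 and 9316 in WT (2.00 ± 0.085 SE, adjusted p = 3.3e-07), about a 4-fold difference with no KI value near a WT value. Serpina3n, a protease inhibitor, was at 5264, 4199, 4911 and 4497 and 1338, 1515, 1227 and 1403 (1.78, adjusted p = 3.9e-07), and the filament gene Vim at 2839, 2434, 2683 and 3214 and 1451, 1329, 1369 and 1361 (1.01, adjusted p = 2.3e-05). Of 25 reactive astrocyte genes 12 rose and none fell (median 0.67). The hyaluronan receptor Cd44 (1.38), the protease inhibitor Timp1 (1.95) and the chemokine Cxcl10 (2.67) rose from low levels, and Lcn2 did not pass (0.67, adjusted p = 0.24). Of 24 homeostatic astrocyte genes 10 rose and 1 fell. The potassium channel Kcnj10 (0.63, adjusted p = 0.00038), the water channel Aqp4 (0.62, adjusted p = 0.00038) and the glutamate transporter Slc1a2 (0.41, adjusted p = 0.0013) were higher, Slc1a3 (0.14), Gja1 (-0.071) and Gjb6 (-0.077) did not pass, and the GABA transporter Slc6a11 fell (-0.35, adjusted p = 0.0011).

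Called microglial genes were mostly higher in both states, with the larger median in the activated one. Of 27 genes of activated and phagocytic microglia 19 rose and 1 fell (74.1% called, median 0.69), and of 18 homeostatic genes 7 rose and none fell (median 0.25). Cst7, a cystatin of activated microglia, was at 56, 120.2, 7.64 and 103 in KI and 5.38, 4.98, 1.11 and 2.08 in WT (3.65, adjusted p = 0.0074). Gpnmb, a glycoprotein of lipid-laden phagocytes, was at 678, 447, 729 and 561 and 111, 168, 124 and 131 (2.16, adjusted p = 2.5e-05), and the lipid-sensing receptor Trem2 at 657, 742, 306 and 618 and 236, 297, 242 and 247 (1.11, adjusted p = 0.0079). The values of KI replicate 3 were the lowest of the KI group for Cst7 and Trem2 and the highest for Gpnmb, and the list level over WT was 1.08, 0.98, 0.35 and 0.90 in KI replicates 1 to 4. Among the homeostatic genes, P2ry12 (0.062), Tmem119 (0.18) and Sall1 (0.21) did not pass, while Csf1r (0.36) and Cx3cr1 (0.36) rose. Lpl, lipoprotein lipase, which neurons also express, fell (-0.82, adjusted p = 0.0022). Apoe, made largely by astrocytes, rose (0.28, adjusted p = 0.043) with overlapping groups.

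Complement genes followed the glial pattern, 9 of 24 up and 2 down. C4b was at 9583, 6005, 5629.9 and 7556 in KI and 2214, 2059, 2217 and 2316 in WT (1.68 ± 0.14 SE, adjusted p = 3.3e-05), and C3 at 314, 199, 76.3 and 179 and 48.3, 72, 71 and 72.6 (1.38, adjusted p = 0.020), the latter not called without WT replicate 1 (adjusted p = 0.064). The 3 subunits of C1q, made by microglia, rose together by 0.68 to 0.70, C1qa with 1206 to 1936 in KI and 953 to 1018 in WT (0.70, adjusted p = 0.0032). Clu, the astrocytic complement inhibitor clusterin, rose (0.52, adjusted p = 0.00079), and properdin, Cfp, fell (-0.86, adjusted p = 0.010). Of 29 antigen presentation genes 6 rose and 1 fell (24.1% called, against 15.8% of all genes). Their list level over WT was 0.71, 0.033, 0.080 and 0.14 in KI replicates 1 to 4. In WT it was -0.13, -0.20, 0.17 and 0.17, so that only KI replicate 1 stood above the WT libraries. The class I genes H2-K1 (0.72, adjusted p = 0.032) and H2-D1 (0.81, adjusted p = 0.027) rose. The peptide transporter Tap1 (0.69, adjusted p = 0.042) and the class I regulator Nlrc5 (1.24, adjusted p = 0.030) rose too, and B2m did not pass (0.51, adjusted p = 0.058). The class II genes Cd74 (-0.56), H2-Aa (-0.44), H2-Ab1 (0.46) and H2-Eb1 (-0.65) did not pass. The H2 genes are near-identical copies, so the split of reads among them is uncertain. Of 14 genes of circulating immune cells 1 passed, Ptprc (0.67), which microglia also express.

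Interferon-stimulated genes stood highest in 1 KI library. Their list level over WT was 1.72, 0.17, 0.25 and 0.31 in KI replicates 1 to 4, against 0.01, -0.16, 0.0017 and 0.15 in WT. The list had a median difference of 0.62, near that of reactive astrocyte genes, but only 4 of 37 members passed (10.8%, against 15.8% of all genes). Ifit3 was at 1312, 314, 379 and 327 in KI and 236, 182, 229.6 and 233 in WT (1.11, adjusted p = 0.066), and Isg15 at 122, 21.5, 20.8 and 26 and 11, 11.2, 21.4 and 17.9 (1.18, adjusted p = 0.14). Irf7 was at 332, 97.2, 92.1 and 57.2 and 32.9, 41.7, 46.5 and 51.6 (1.40, adjusted p = 0.046), and Bst2 at 400.3, 160.05, 163 and 172 and 95.7, 76.8, 125 and 126 (0.98, adjusted p = 0.037), both above WT in every KI library and highest in KI replicate 1. The calls of this list moved with single libraries: without KI replicate 1 7 members rose, Ifit3 among them (0.63, adjusted p = 0.0092), and 1 fell. The number that rose was 8 without KI replicate 2, 1 without WT replicate 3 and 0 without WT replicate 1, 2 or 4. Irf7 and Bst2 were among the lost calls, with an adjusted p of 0.12 and 0.094 without WT replicate 1. The core of the interferon-stimulated response element, a pair of GAAA blocks separated by 2 bases of any kind on either strand, occurred in 3.19% of all promoters examined and in 14 of the 26 members with a sequence, of which 2 were called. The Bst2 promoter is shown for its run of 3 GAAA units on the strand of the gene, with the first match in capitals.
Bst2 (chr8:71537581-71537614, minus strand): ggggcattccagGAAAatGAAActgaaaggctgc

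Called cytokine and endothelial genes were more often higher than lower. Of 32 chemokine, cytokine and receptor genes 7 rose and 3 fell (31.2% called, against 15.8% of all genes). Tgfb1 was at 213, 166, 144 and 196 in KI and 81.1, 92.9, 107 and 84.4 in WT (0.96, adjusted p = 0.0020), and Cxcl12, a chemokine of granule cells and vessels, fell, with 943 to 1299 in KI and 1549 to 1813 in WT, (-0.56, adjusted p = 0.0022) while its receptor Cxcr4 rose (1.00, adjusted p = 0.0046). Cntf (0.84) and Socs3 (0.82), a cytokine and a feedback inhibitor of the STAT3 pathway, rose as well. Among 30 endothelial barrier and pericyte genes 7 rose and none fell (23.3% called), with Vwf (0.61), Notch3 (0.69) and Slco1a4 (0.53) higher and the barrier genes Cldn5 (0.028), Pecam1 (0.011) and Ocln (-0.14) not called. The hemoglobin chains Hba-a1 (-0.65, adjusted p = 0.025) and Hba-a2 (-0.62, adjusted p = 0.025), near-identical copies, fell, and Hbb-bs (-0.48), Hbb-bt (-0.64) and Alas2 (-0.57) did not pass.

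**Figure D3:**
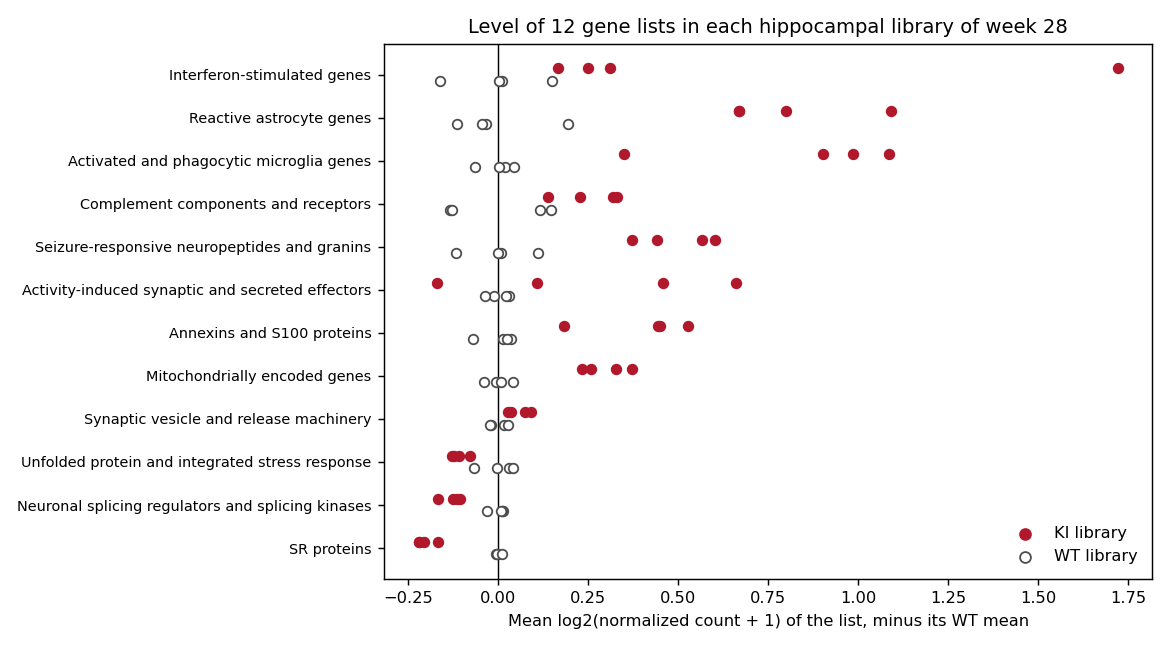
Mean over the members of 12 gene lists of log2(normalized count + 1) minus its WT mean, 1 point per library (KI filled, WT open). KI replicate 1 stands alone at 1.72 for interferon-stimulated genes, and all 4 KI points lie apart from the WT points for reactive astrocyte, activated microglia, splicing and mitochondrially encoded genes.

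Called extracellular matrix genes were more often higher than lower in several families. Tnc, tenascin C, was at 482, 366, 547 and 238 in KI and 172, 124, 139 and 157 in WT (1.40, adjusted p = 0.0021). Among 24 genes of perineuronal nets and lecticans 8 rose and 1 fell, including the link protein Hapln4 (0.80, adjusted p = 9.8e-05) and the proteoglycans Vcan (0.71, adjusted p = 0.00097) and Acan (0.57, adjusted p = 0.023), with Bcan (-0.058) and Tnr (-0.0097) not called. Of 44 collagen genes 8 rose and 3 fell, Col27a1 at 1185, 713, 834 and 933 in KI and 291, 249, 386 and 276 in WT (1.60, adjusted p = 0.00014), and the basement membrane chains Col4a1 (0.48) and Col4a2 (0.57) moved alike. Col15a1 fell (-1.05, adjusted p = 0.0063). Of the collagen genes 25% were called, against 15.8% of all genes, and with equal totals 7 rose and 5 fell. The level of the collagen list over WT overlapped between genotypes, at 0.26, -0.095, 0.22 and 0.041 in KI and -0.30 to 0.27 in WT. Integrins rose in 7 of 25 cases and fell in 2, Itgav (0.49) and Itgb8 (0.43), which together form the receptor that activates latent TGF-beta, among the former, and Itga4 (-0.70) and Itga7 (-0.48) the latter. Sparc (0.74, adjusted p = 0.00014) and Lox (1.57, adjusted p = 0.015), which organize and crosslink collagen, rose, and the meningeal gene Ogn fell (-1.27, adjusted p = 0.00085). Of 17 meningeal and perivascular fibroblast genes, Lum rose and Ogn fell, and Col1a1 (0.10) and Dcn (0.43) did not pass. Annexins and S100 proteins, small calcium-binding proteins, rose in 10 of 22 cases and none fell, S100a6 at 415, 299, 395 and 368 in KI and 168, 162, 166 and 177 in WT (1.12, adjusted p = 0.00014), with S100a4 (0.98) and Anxa4 (0.88) next among the more abundant.

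Growth factor signalling genes changed in several families. Bmp3, a BMP that antagonizes activin and other BMPs, was at 1219, 1254, 1545 and 886 in KI and 214, 123, 134 and 155 in WT (2.97 ± 0.19 SE, adjusted p = 6.3e-06). Acvr1c, the receptor ALK7, was at 2211, 2379.7, 1641 and 1715 and 614, 685, 643 and 623 (1.61, adjusted p = 1.3e-05). The type II activin receptors Acvr2a (-0.38, adjusted p = 0.030) and Acvr2b (-0.85, adjusted p = 0.0066) and the subunit Inhbb (-0.75, adjusted p = 0.016) fell, so that of 45 genes 10 rose and 4 fell. The activity-induced subunit Inhba was at 1212, 857, 1196 and 286 in KI and 654, 564, 500.4 and 577 in WT (0.43, adjusted p = 0.47), and KI replicate 4 was below all WT values. Among 40 Wnt genes Wnt9b (2.81), Wnt10b (1.49) and Wnt7b (0.48) rose and Wnt7a (-0.61) and Wnt16 (-1.05) fell. Among 47 genes of neurotrophic and growth factors Igfbp6 (1.31, adjusted p = 0.00015) and the receptor Ret (0.79, adjusted p = 0.0044) rose beside Bdnf, and Ntf3 (-1.08, adjusted p = 0.0024) and Fgf10 (-0.74, adjusted p = 0.0016) fell. Ntrk2, the receptor of BDNF, did not pass (0.036).

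Guidance and adhesion genes were mixed. Of 31 semaphorin, plexin and neuropilin genes 6 rose, Sema4a (0.97) and Sema3a (0.65) most, and 6 fell, Sema5b (-0.62) most. Dcc, the netrin receptor, was at 748, 959, 773 and 833 in KI and 1548, 1657, 1489 and 1498 in WT (-0.91, adjusted p = 6e-05), and Robo1 fell (-0.36) while Unc5d rose (0.53). Of 32 cadherins and protocadherins outside the clusters 8 rose and 3 fell, led by the activity-regulated Pcdh8 (1.10, adjusted p = 0.00063) and by Cdh24 (-0.89, adjusted p = 0.00087). The 55 clustered protocadherins had 6 higher and 3 lower (16.4% called, against 15.8% of all genes).

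Genes for the control of splicing fell as a family. Of 63 neuronal splicing regulators, splicing factors and splicing kinases 22 fell and 3 rose (median -0.13), of 11 SR proteins 5 fell and none rose, and of 20 hnRNP proteins 5 fell and none rose, against 6.91% of all genes lower. Srsf7 was at 2562, 2842, 2469 and 2481 in KI and 3568, 3759, 3491 and 3667 in WT (-0.49 ± 0.054 SE, adjusted p = 0.00025), and Srsf3 at 3898, 3615, 3639 and 2906 and 4878, 4892, 4828 and 4858 (-0.48, adjusted p = 0.0021). The SR-like factor Tra2a was at 2223, 2925, 2330.1 and 2548 and 3387, 3475, 3457 and 3774 (-0.50, adjusted p = 0.0019). These SR proteins are known to bind exonic enhancers, and all 3 were lower in every KI library. Clk1, the kinase that phosphorylates SR proteins (-0.42, adjusted p = 0.00023), Celf6 (-0.52, adjusted p = 0.0024), Srrm1 (-0.34, adjusted p = 0.00038), Hnrnph1 (-0.45, adjusted p = 0.00086) and Hnrnpa3 (-0.39, adjusted p = 0.0011) fell as well. The remaining SR genes Srsf2 (-0.18), Srsf10 (-0.25) and Srsf12 (-0.22) fell, and Srsf1 (-0.14), Srsf4 (-0.025), Srsf5 (-0.15), Srsf6 (-0.18), Srsf9 (-0.13) and Srsf11 (-0.012) did not pass. The neuron-specific regulators Rbfox1 (0.0083), Nova1 (0.0095) and Ptbp2 (0.0087) did not pass, and Elavl4 (0.25, adjusted p = 0.028) and Qk (0.18, adjusted p = 0.025) rose. The list level over WT of the SR proteins was -0.22, -0.17, -0.21 and -0.22 in the 4 KI libraries, so that the mice were alike. The direction of the medians of these 3 lists held with equal totals, with upper quartile scaling and with a correction for GC content and length.

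Chaperones of the endoplasmic reticulum fell. Hspa5, the master chaperone BiP, was at 5816, 7711, 5269.5 and 6942 in KI and 8986, 9714, 10007 and 11740.4 in WT (-0.66 ± 0.11 SE, adjusted p = 0.0030). The disulfide isomerase Pdia6 was at 2017, 2403, 2047 and 2242 and 2895, 3197, 3311 and 3465 (-0.56, adjusted p = 0.00051), and the co-chaperone Sdf2l1 at 138, 199, 152 and 167 and 215, 258, 266 and 310.3 (-0.68, adjusted p = 0.0092). Manf (-0.53, adjusted p = 0.0064), Xbp1 (-0.52, adjusted p = 0.0013), Calr (-0.45, adjusted p = 0.0018), Pdia4 (-0.43, adjusted p = 0.0074), Hsp90b1 (-0.32, adjusted p = 0.010), Creld2 (-0.46, adjusted p = 0.035) and Dnajb11 (-0.24, adjusted p = 0.020) fell too, and Creld2 was the one of these 10 whose groups overlapped. Together they serve folding in the secretory pathway. Of the 35 genes of the unfolded protein and integrated stress responses 10 fell and 2 rose, Asns (0.17) and Psat1 (0.19). The transcription factors of the stress pathways Atf4 (-0.11), Ddit3 (-0.083), Atf3 (0.69) and Atf5 (-0.037) did not pass. Of 18 heat shock genes of other compartments 2 rose and 4 fell, the cytosolic Hspa8 by 0.17 and the factor Hsf1 by 0.34, with Hspa1a (-0.18), Hsp90aa1 (-0.04) and Hspb1 (0.33) not called.

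The ER stress response element, CCAAT and CCACG separated by 9 bases of any kind, was searched on both strands of the same promoter windows. It occurred in 20 of 12927 genes (0.155%), and 5 of the 9 lowered genes of the stress list with a sequence held it, against 2 of 20 that did not pass. Of the 20 genes that held it anywhere 8 fell and none rose, against 6.91% of all genes lower. The stress list was chosen with earlier results of these data known. Of the 13 holders outside it 3 fell, Hnrnpa3 (adjusted p = 0.0011), Zfp57 (adjusted p = 0.048) and Pan2 (adjusted p = 0.0498). All 3 were named after their values were seen. Hnrnpa3 kept its call under all 18 alternatives, Pan2 lost it under 9 of them, and Zfp57 lost it in some fits with a single library left out. The match of Hspa5 lies in an exon of another of its transcripts and is not printed. The others are shown for their place in lowered genes of the list, with the blocks in capitals, read 5′ to 3′ on the strand of the gene.
Pdia6 (chr12:17266479-17266521, plus strand): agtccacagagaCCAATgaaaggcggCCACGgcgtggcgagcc
Hsp90b1 (chr10:86705626-86705668, minus strand): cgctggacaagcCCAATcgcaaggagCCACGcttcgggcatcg
Hsp90b1, its other match (chr10:86705521-86705563, minus strand): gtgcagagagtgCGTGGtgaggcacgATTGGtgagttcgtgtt
Creld2 (chr15:88819508-88819550, plus strand): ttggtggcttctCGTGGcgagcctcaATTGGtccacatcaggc
Calr (chr8:84847063-84847105, minus strand): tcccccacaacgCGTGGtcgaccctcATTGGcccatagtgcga
In Creld2, Calr and the other match of Hsp90b1 the element reads on the opposite strand, so that its blocks appear as CGTGG and ATTGG.

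Of 13 protein-coding genes of the mitochondrial genome 10 rose and none fell (median 0.30), mt-Co2 at 140995, 148954, 179575 and 166094 in KI and 105794, 102725, 134422 and 106658 in WT (0.50, adjusted p = 0.0051). The most abundant of them, mt-Co1 (0.27, adjusted p = 0.014), mt-Cytb (0.29, adjusted p = 0.0033) and mt-Nd4 (0.30, adjusted p = 0.0026), also rose, and the share of all counts in the 10 most abundant genes of a library was 8.26% to 9.34% in KI and 7.56% to 7.79% in WT. Of 79 nuclear oxidative phosphorylation genes 9 rose and none fell (median 0.077), a share of 11.4% against 8.92% of all genes called higher. With equal totals 3 rose and with the replicate block 3, and without WT replicate 2 the number was 2. Cytosolic ribosomal protein genes were called in 4 of 79 cases, all lower, and in 17 with equal totals. Of 23 antioxidant genes, among them targets of NRF2 and genes of iron handling, 7 rose and none fell, Hmox1 (0.57, adjusted p = 0.0049) and the peroxiredoxin Prdx6 (0.50, adjusted p = 0.00011) most. Among 25 metallothioneins and zinc transporters Mt1 (0.36, adjusted p = 0.0046) and Slc39a8 (0.72, adjusted p = 0.0091) rose and Slc39a2 (-0.87, adjusted p = 0.0029) fell.

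Circadian and imprinted genes had more members lower than higher. Of 22 circadian genes 7 fell, Per3 (-0.53, adjusted p = 0.0016), Npas2 (-0.47, adjusted p = 0.013), Arntl (-0.37, adjusted p = 0.018) and Tef (-0.34, adjusted p = 0.012) among them, and 3 rose, including Bhlhe41 (0.51, adjusted p = 0.0093). The output genes Dbp (0.06), Per1 (-0.20), Nr1d1 (-0.12) and Cirbp (0.21) did not pass, and per the labels brains of both genotypes were collected in the same afternoon window. Of 22 imprinted genes 6 fell and 2 rose. Rtl1, a paternally expressed retrotransposon-derived gene, was at 95.6, 140.3, 139 and 100.3 in KI and 8.89, 3.63, 7.93 and 9.63 in WT (3.86, adjusted p = 2.3e-05), and Peg10, of like origin, at 1416, 1122, 766 and 1530.3 and 760.4, 421, 623 and 512 (1.05, adjusted p = 0.0085). From the maternal allele of the region that holds Rtl1, the noncoding genes Meg3 (-0.37, adjusted p = 0.0011) and Mirg (-0.45, adjusted p = 0.0011) fell. Rtl1 has a maternal antisense transcript, with which its reads could be confused were strand not used. Magel2 (-1.29, adjusted p = 0.0049), Zdbf2 (-1.0, adjusted p = 0.00037) and Plagl1 (-0.52, adjusted p = 0.025) fell too.

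Of 26 myelin genes 3 rose and 2 fell (19.2%, against 15.8% of all genes), Mbp (0.28, adjusted p = 0.056) and Mog (0.27, adjusted p = 0.34) not among them, and of 20 precursor and differentiation genes 3 rose, with Pdgfra (0.017) and Cspg4 (0.16) not called. Of 26 cholesterol synthesis genes 1 rose and 1 fell (7.69%), and Hmgcs1 (0.33) and Sqle (0.064) did not pass. Of 26 genes of fatty acid synthesis, elongation and desaturation 7 rose and 1 fell (30.8%, median over the list -0.012), with Srebf1 (0.40, adjusted p = 0.0020) and Scd2 (0.28, adjusted p = 0.0032) higher and Elovl6 (-0.29, adjusted p = 0.028) lower. Abca1, which exports cholesterol, rose (0.56, adjusted p = 0.025) with overlapping groups, and the fatty acid carriers Fabp7 (-0.71, adjusted p = 0.0024) and Cd36 (-0.82, adjusted p = 0.013) fell.

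The genotype effect in hippocampus was then compared with that in frontal cortex at the same age, a difference of differences over 16 libraries. Of 18413 genes 841 passed (4.57%), of which 327 were also called in the hippocampal comparison. Both regions were taken from the same mice, and the number was 1259 with genotype and replicate number taken as the mouse in a block, 1624 without KI cortex replicate 2 and 559 without WT hippocampus replicate 1. The standard errors and adjusted p-values of regional differences given in this text come from the fit without that block, which treats the 16 libraries as independent. Nefm, the medium neurofilament, rose in hippocampus (0.44) and was at -0.85 in cortex (difference 1.28 ± 0.11 SE, adjusted p = 2e-05). Syne1 was at 0.27 and -0.92 (difference 1.19 ± 0.13 SE, adjusted p = 0.00014). Both had effects of opposite sign in the 2 regions. Tsnax (0.11, cortex -0.58), Lrtm2 (0.15, cortex -0.73) and the kinase Stk32b (-0.31, cortex 1.96) differed between the regions without passing the test in hippocampus alone. Eif4a-ps4, listed at 0 in WT hippocampus, also passed (adjusted p = 2.5e-08).

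Several of the genes described above had effects larger in hippocampus. Penk was at 1649.5 ± 506 in KI cortex and 1929.8 ± 378 in WT cortex (SD, n = 4), a difference of -0.27 against 2.05 in hippocampus (difference of effects 2.32 ± 0.30 SE, adjusted p = 0.00046). Drd1 (0.088 in cortex, 1.69 ± 0.21 SE, adjusted p = 0.00040), Acvr1c (0.18, 1.43 ± 0.19 SE, adjusted p = 0.00057), Bmp3 (1.11, 1.86 ± 0.24 SE, adjusted p = 0.00051), S100a6 (-0.19, 1.31 ± 0.15 SE, adjusted p = 0.00020), Igfbp6 (0.20, 1.11 ± 0.17 SE, adjusted p = 0.0014) and Kcnj2 (-0.16, 1.33 ± 0.27 SE, adjusted p = 0.0079) followed the same order. Trpa1 and Cldn22, which fell in hippocampus, were at -0.41 and 0.71 in cortex (adjusted p = 0.015 and 0.0068 for the difference). Effects of opposite sign were found for Cck (0.88 in cortex, -1.13 ± 0.21 SE, adjusted p = 0.0059) and Calb2 (-2.17, 2.74 ± 0.64 SE, adjusted p = 0.020). Hapln4 (1.31 in cortex, -0.51 ± 0.13 SE, adjusted p = 0.029) and Slc17a7 (0.89, -0.49 ± 0.12 SE, adjusted p = 0.022) had the larger effect in cortex. Lamp5 (-1.86), Pcsk1 (-1.66), Crhr1 (-1.52) and Cxcl12 (-1.11) had cortical values further below 0, with an adjusted p for the difference of 0.019, 0.045, 0.022 and 0.037 in that order. No regional difference was detected for Slc6a5 (6.42 in cortex, 1.22 ± 0.89 SE, adjusted p = 0.52), Glra1 (4.31, 0.84 ± 0.66 SE, adjusted p = 0.55), Npy (1.92, 0.36 ± 0.34 SE, adjusted p = 0.65), Gfap (1.52, 0.47 ± 0.27 SE, adjusted p = 0.37), Hspa5 (-0.54, -0.12 ± 0.16 SE, adjusted p = 0.76) or Srsf7 (-0.50, 0.012 ± 0.094 SE, adjusted p = 0.97). Among the lists, release machinery held 16 of 62 genes with a regional difference, voltage-gated potassium channels 12 of 47 and the BMP and activin pathway 10 of 45.

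**Figure D4:**
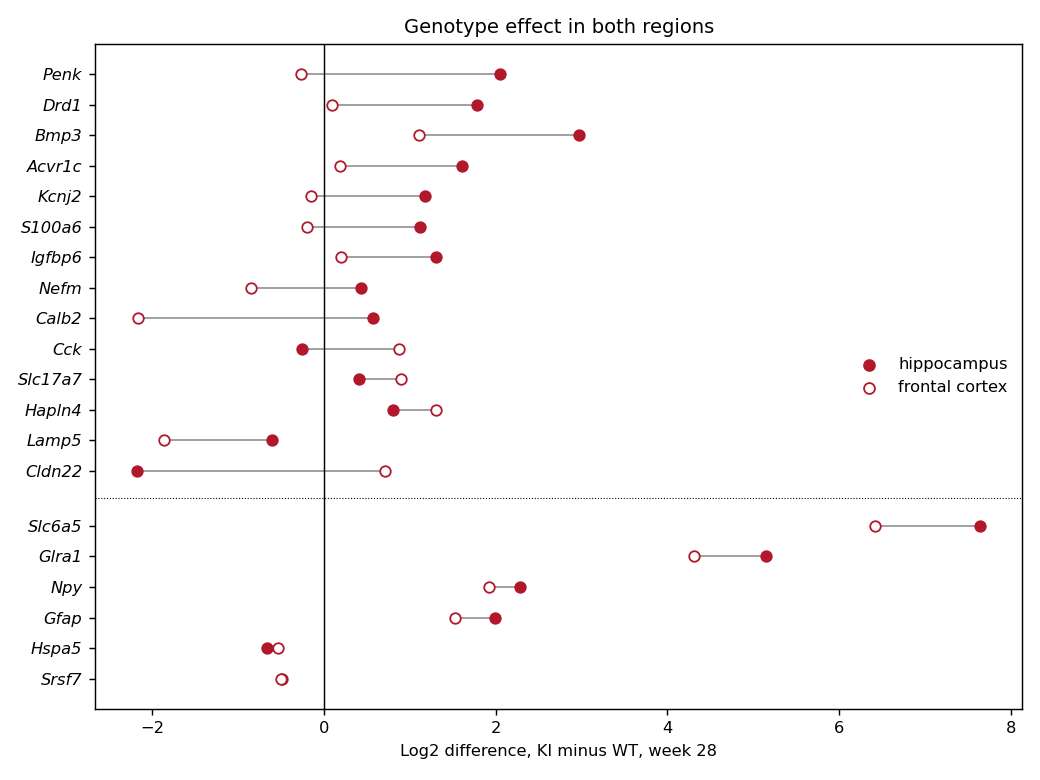
Log2 difference KI minus WT at week 28 in hippocampus (filled) and frontal cortex (open) for 20 genes, joined by a line. The upper 14 genes passed the test of the regional difference, Penk and Drd1 with cortical values of -0.27 and 0.088, and the lower 6, from Slc6a5 to Srsf7, did not.

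Values of 5 of these genes were set beside those of younger hippocampi. Slc6a5 in KI was at 12.3 ± 12.1 at week 1, 2.96 ± 1.52 at week 7, 1590.5 ± 1044 at week 14 and 1027 ± 243 at week 28 (SD, n = 4 each), and in WT its means stayed between 2 and 6. Gfap in KI went from 9356 ± 708 at week 7 to 66135 ± 43641 at week 14 and 37495 ± 5375 at week 28, with WT at 9166 ± 463, 8637 ± 774 and 9340.5 ± 446. Npy in KI was at 6653 ± 3130.2 at week 14 and 3628 ± 471 at week 28. For these genes the week 14 mean was thus the higher, yet no gene passed the test of a change of the effect between weeks 14 and 28 (0 of 18411 by limma, 0% of those tested, with 2274 at an unadjusted p under 0.05). Without KI replicate 4 of week 14 156 genes passed, without KI replicate 1 of week 28 33, and 0 to 9 without any other library. The smallest p-values belonged to Igsf9b (0.91 at week 14 and -0.087 at week 28, -0.99 ± 0.15 SE, adjusted p = 0.072), Sox21 (-0.90 and 0.35, 1.26 ± 0.20 SE, adjusted p = 0.072) and Cdkn1a (2.40 and 0.82, -1.58 ± 0.26 SE, adjusted p = 0.077). Cdyl2 (1.29 and 0.066), Sstr2 (1.73 and 0.33) and Inhba (3.20 and 0.43) came next. Hspa5 was at 7706 ± 1147 in KI and 7714 ± 904 in WT at week 14, a difference of -0.0046 against -0.66 at week 28 (-0.66 ± 0.18 SE, adjusted p = 0.18). Fibcd1 was at 1513 ± 449 in KI and 4649.8 ± 533 in WT at week 14.

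**Figure D5:**
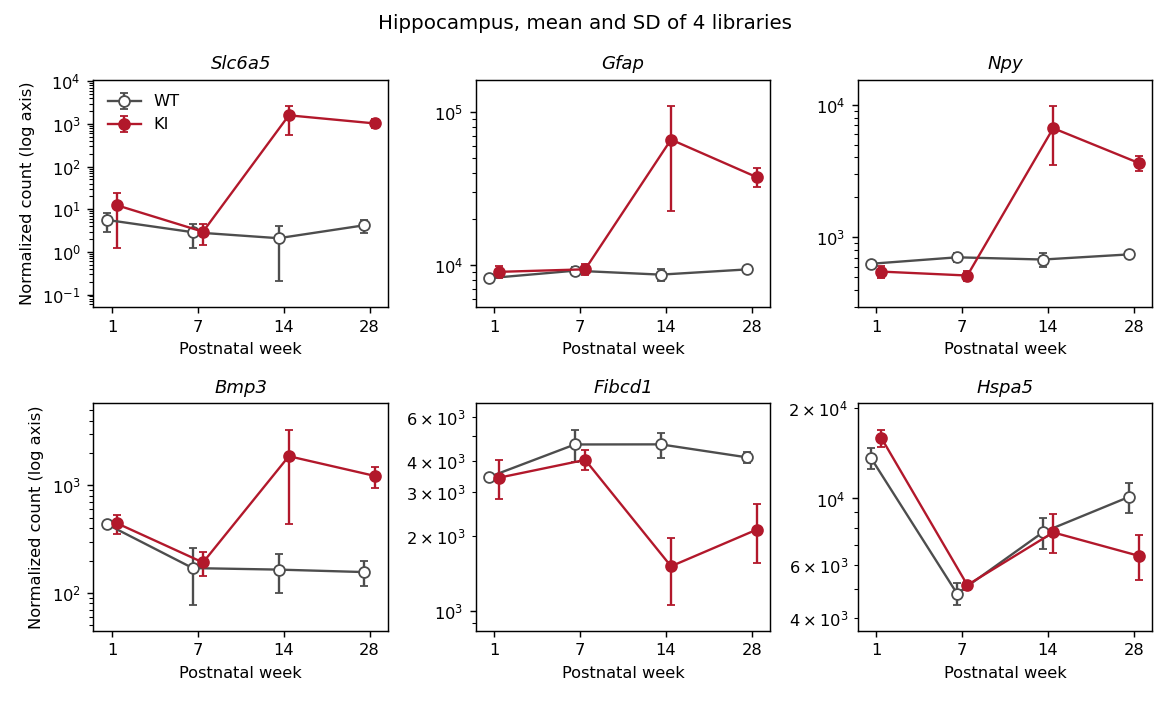
Mean normalized count with SD (n = 4 libraries) in the hippocampus of KI (filled) and WT (open) mice at weeks 1, 7, 14 and 28 for Slc6a5, Gfap, Npy, Bmp3, Fibcd1 and Hspa5, each on its own log axis. The KI and WT means of the first 5 genes lie closer at weeks 1 and 7 than at weeks 14 and 28, and those of Hspa5 lie furthest apart at week 28.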

How the data were processed

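RNA of the hippocampus at week 28 was sequenced in 4 KI and 4 WT libraries, each from a separate mouse. The authors deposited 1 table of 64 libraries, whose values are a signal without unit: gene-level read numbers estimated by Salmon and divided by DESeq2 factors for library size and transcript length. Per the labels' processing notes Salmon 0.11.2, DESeq2 1.19.11, R 3.6.0 and GRCm38 were used, and the study's methods name other versions of the first 3. The values are not whole, and 24.4% to 27.9% of low values in a library lay within 0.1 of a whole multiple of the estimated step, so read numbers were not recovered, depth is unknown and no counting intervals are given. The number of libraries therefore limits the precision.

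Genes with a mean of at least 1 over the 8 libraries were tested with limma 3.58.1 in R 4.3.3 on log2(value + 1) with a mean-dependent prior, adjusted over all genes by the Benjamini-Hochberg method, and called under 0.05. Regional and age differences were interaction terms over 16 libraries. The code was tested on simulated data. Of 18432 identifiers 18420 matched the annotation. Named genes are the first 4 of each list (all members of lists of up to 12), the 4 largest non-overlapping called changes per list and direction, the 12 largest per direction over all genes with a mean of at least 20 in the higher group, the 6 of smallest p per interaction, and cell type markers, and 45 further genes, most of them members of a described list, were named after their values were seen. Members, lists and markers were chosen with earlier results of these data known, so lists were described and not tested. Replicate numbers did not pair KI with WT (correlations of their deviations from the group means were -0.128 to 0.0799). Some genes within the naming rule are not reported here. Alternatives covered the pseudocount, filter, scaling, block, weights, GC content and length, the libraries fitted and each library left out.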

Additional observations from a re-analysis of the deposited data

Results flagged for a closer look

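Single libraries that lay far from the other 3 of their group, with a gap above the critical value of Dixon's test, were found in 18 of 128 groups of 4 normalized counts given above, where chance gives about 1 in 20. KI replicate 1 had Bst2 at 400.3, Ifit3 at 1312, Irf7 at 332 and Isg15 at 122. KI replicate 2 had Gal at 41.6, Npy at 2922 and Slc17a6 at 269. KI replicate 4 had Th at 130.03. WT replicate 1 had C3 at 48.3. WT replicate 2 had Blnk at 135, Ifit3 at 182, Kcnip2 at 4992, Th at 8.4 and Trpa1 at 39.7. WT replicate 3 had Bdnf at 1074, Gad2 at 3865, Npy at 683 and mt-Co2 at 134422. All 4 genes of KI replicate 1 are on the list of interferon-stimulated genes.

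Effects that differed between hippocampus and frontal cortex in the interaction test were found for 29 genes whose regional values are given above or whose values are given per library. The hippocampal effect minus the cortical one, in log2 units, was positive for Acvr1c (1.43), Arpc1b (0.76), Bmp3 (1.86), Calb2 (2.74), Crhr1 (0.94), Cxcl12 (0.55), Cyfip2 (0.40), Drd1 (1.69), Eif4a-ps4 (8.40), Igfbp6 (1.11), Kcnj2 (1.33), Lama3 (1.15), Lamp5 (1.25), Lrtm2 (0.88), Nefm (1.28), Otop1 (3.45), Pcsk1 (0.93), Penk (2.32), S100a6 (1.31), Syne1 (1.19), Tsnax (0.70) and Vim (0.73). It was negative for Cck (-1.13), Cldn22 (-2.89), Hapln4 (-0.51), Slc17a7 (-0.49), Stk32b (-2.27), Tgfb1 (-1.67) and Trpa1 (-3.64). For Eif4a-ps4, listed at 0 in WT hippocampus, the size of the difference depends on the added 1.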

How the results depend on the processing

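Of the 310 called genes named in the text 227 stayed called under all 18 alternatives, 83 lost the call under at least 1, none of the 434 named genes changed sign while called in either fit, and 21 of 124 genes that did not pass gained a call under at least 1. The 63 genes whose call was lost without at least 1 single library, with an adjusted p of 0.014 to 0.050 in the fit of all 8, were Abca1, Acan, Acvr2a, Apoe, Arntl, Asns, Bst2, C3, Cacna1c, Calb2, Cck, Cntf, Creld2, Crem, Cxcl10, Dnajb11, Efnb3, Elavl4, Elovl6, Epha3, Ephb2, Gabra5, Gad1, H2-D1, H2-K1, Hba-a1, Hba-a2, Hspa8, Htr1a, Htr4, Igfbpl1, Il1r1, Inhbb, Irf7, Khdc3, Limk2, Mapt, Nckap1l, Nes, Nlrc5, Npc2, Pan2, Pcsk1, Pcsk2, Plagl1, Plk2, Psat1, Ptgs2, Qk, Scg5, Sik1, Slc17a6, Slc38a1, Slc8a1, Srsf10, Srsf12, Syt1, Tap1, Thbs3, Unc13c, Wnt16, Zfp57 and mt-Co1. With each library left out in turn the calls ranged from 1881 (without WT replicate 1) to 2880 (without KI replicate 2), the higher ones from 1114 to 1565 and the lower ones from 767 to 1315. With 3 libraries in a group the test has less power, by its construction. Scaling to equal totals gave 1294 higher and 1892 lower (40.6% higher) in place of 1640 and 1271, and the correction for GC content and length 1806 and 1342. Nuclear oxidative phosphorylation genes called higher went from 9 to 3 with equal totals and with the replicate block, and cytosolic ribosomal protein genes called lower from 4 to 17 and, with the correction for GC content and length, to 13. Interferon-stimulated genes called higher were 4, and between 0 (no filter) and 9 (1 fit of all 64 libraries) under the other settings. The cause of these moves was not tested. With the replicate number as a block 1340 genes were higher and 1048 lower, and since the numbers did not pair KI with WT libraries this fit spends degrees of freedom on a shared number alone. Same-numbered KI hippocampus and KI cortex libraries deviated together (correlations 0.238 to 0.468), WT ones did not (-0.117 to 0.028). The regional difference was called for 841 genes, 862 with equal totals and 1259 with genotype and number as 1 block, and for 559 to 1624 with 1 library left out. The change of the effect between weeks 14 and 28 was called for no gene, for 2 with the replicate block, and for 0 to 156 with 1 library left out. Depth is unknown for these values, so a change of a gene near 0 normalized counts cannot be told from counting error within a library, and the spread between libraries is the error given throughout.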

Other observations

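Cytoskeletal, matrix and lipid families outside the groups described so far held further changed genes. Among 15 neurofilament and axonal genes the heavy neurofilament Nefh (0.59, adjusted p = 0.00022) and the tubulin regulator Stmn4 (0.31, adjusted p = 0.0061) rose with Nefm, and Mapt, which codes for tau, fell (-0.14, adjusted p = 0.041), while Nefl (0.015) and Ina (-0.10) did not pass. Of 35 laminin and basement membrane genes 7 rose and 3 fell (28.6% called, against 15.8% of all genes). The laminin chain Lama3 (0.70, adjusted p = 0.0013) was among the former and Thbs3 (-0.69, adjusted p = 0.015), a thrombospondin, among the latter. Lama3 was at 299.9, 278, 358 and 306 in KI and 178, 182, 199.9 and 201 in WT, with no overlap. Peroxisomal beta-oxidation genes rose in 4 of 24 cases and fell in 1 (20.8% called). The fatty acid importers Abcd2 (0.48, adjusted p = 0.00092) and Abcd3 (0.20, adjusted p = 0.0099) and catalase, Cat (0.41, adjusted p = 0.0053), rose, and Crot fell (-0.23, adjusted p = 0.011). Cyp46a1, the enzyme by which neurons clear cholesterol, rose (0.30, adjusted p = 0.012), as did the lysosomal cholesterol carrier Npc2 (0.34, adjusted p = 0.024). Of 32 lipid droplet and carrier genes 1 rose and 2 fell (9.38% called, against 15.8% of all genes). The one that rose was Pparg (0.91, adjusted p = 0.013), and Plin2 (0.16) did not pass.

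Second messenger and contact families were also mixed. Of 32 phosphodiesterases and adenylyl cyclases 7 rose and 3 fell. Pde7b, a cAMP phosphodiesterase, was at 342, 306, 317 and 383 in KI and 581, 561, 550.5 and 553 in WT (-0.74, adjusted p = 0.00027), and Pde10a fell by less (-0.24, adjusted p = 0.012), while the cyclase Adcy7 (0.71, adjusted p = 0.0017) and the calcium-regulated Pde1a (0.30, adjusted p = 0.0091) rose. Of 23 genes for purinergic, adenosine and cannabinoid signalling 3 rose and none fell (13% called, against 15.8% of all genes). They were the ectonucleotidase Entpd2 (0.69, adjusted p = 0.00067), the adenosine kinase Adk (0.26, adjusted p = 0.011) and the endocannabinoid-producing lipase Daglb (0.46, adjusted p = 0.0018). Adora1 (-0.085), P2rx7 (-0.19) and Cnr1 (-0.023) did not pass. Among 22 ephrins and their receptors Ephb6 rose (0.28, adjusted p = 0.0098) and Efnb3 (-0.35, adjusted p = 0.019), Epha3 (-0.30, adjusted p = 0.032) and Ephb2 (-0.28, adjusted p = 0.021) fell. The cation channel Trpc5, the other TRP channel besides Trpa1 that was called, was at 266 to 363 in KI and 501 to 584 in WT (-0.79, adjusted p = 0.00062). Of 5 aquaporins Aqp4 rose and Aqp11, found in the endoplasmic reticulum, fell (-0.49, adjusted p = 0.0056).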
